A study of Homo sapiens with 38 samples.

Results

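Markers of the endoderm and of the hypoblast were followed while naive human pluripotent stem cells left the naive state in different media. The markers were 8 genes, SOX17, FOXA2, FOXQ1, GATA4, GATA6, HNF4A, PDGFRA and CXCR4, taken as the rows with these symbols from a table of 57133 genes. All 8 were found, and all 8 were among the 16674 genes that passed the filter on low counts and were tested.

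Hypoblast, the extraembryonic endoderm of the blastocyst, arises before gastrulation from the inner cell mass, and GATA6, GATA4, SOX17 and PDGFRA are known for marking it. Definitive endoderm arises later, from the primitive streak under Nodal/Activin signalling, and is recognised by SOX17 and FOXA2 together with surface CXCR4. Most of these genes belong to both lineages or are shared with mesoderm, so the medium and the day at which each gene appeared are given for every gene separately.

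The cells were Shef6, an established human embryonic stem cell line that had been reset to the naive state and adapted to serum coating, and RNA was measured by QuantSeq, which counts reads near the 3′ end of each transcript. The 38 libraries formed 19 groups of 2 in 2 experiments. The first experiment (Ex1, 30 libraries) held naive cells in PXGL, a medium with LIF and inhibitors of MEK, tankyrase and PKC, kept on serum coating or plated on Geltrex (an extract of basement membrane). From such cells, libraries were taken at days 2, 3, 4, 6 and 8 in N2B27, a basal medium without added growth factors, at the same days in E8, and at days 4, 6 and 8 in mTeSR. E8 and mTeSR are commercial media for conventional, primed pluripotent cells and contain FGF2 and a TGF-beta family ligand. The second experiment (Ex2, 8 libraries) held naive cells on Geltrex and day 4 cells in plain N2B27, in N2B27 plus XAV939 (XAV), a tankyrase inhibitor which lowers WNT signalling, and in N2B27 plus Activin A, FGF2 and XAV939 (FAX). All differentiating cultures of both experiments stood on Geltrex and had a ROCK inhibitor on their opening day. The 2 libraries of a group carry replicate numbers, and the study describes them mostly as technical replicates and in 1 place as biological. Nothing in the labels says that they came from separate cultures, so p-values measure only the spread between these libraries.

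Library totals ran from 3038046 to 5612354 counts (median 4427277), so that a floor of 3 counts, the limit used here for a gene not detected, stood at 0.518 to 1.06 CPM (counts scaled to an equal library total) depending on the library. Naive libraries carried the transcripts of their state, with mean levels of 997 CPM for NANOG, 403 CPM for POU5F1, 449 CPM for DPPA5 and 94.9 CPM for SUSD2. A gene was called changed at an adjusted p under 0.05 together with an absolute log2 fold change over 1 in edgeR's quasi-likelihood test with Benjamini-Hochberg adjustment over all genes tested. Where a group held at most 3 counts in each library, no fitted fold is given and the ratio of summed counts stands in its place with a 95% exact interval that covers counting error only. As reads were counted at transcript ends, CPM levels are compared within a gene and not between genes. In bulk RNA, fewer cells of a type and less RNA per cell cannot be told apart.

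The promoter windows of 3 members are shown. HNF4A was chosen as the only member whose own level was highest in naive cells, before differentiation. GATA6 was chosen because it differed between N2B27 and mTeSR at days 6 and 8, and FOXQ1 because it had the sharpest last step in N2B27. Each window is the 250 bases before an annotated start, from RefSeq (GRCh38.p14), written 5′ to 3′ on the gene's strand, which is the plus strand for all 3. Capitals mark the matches to the motifs searched.
HNF4A, upstream start, chr20:44355449-44355698: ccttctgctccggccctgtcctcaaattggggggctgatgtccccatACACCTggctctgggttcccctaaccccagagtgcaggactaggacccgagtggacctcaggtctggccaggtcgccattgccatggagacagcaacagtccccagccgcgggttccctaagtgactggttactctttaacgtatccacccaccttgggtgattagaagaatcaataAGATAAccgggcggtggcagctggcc
HNF4A, downstream start, chr20:44400989-44401238: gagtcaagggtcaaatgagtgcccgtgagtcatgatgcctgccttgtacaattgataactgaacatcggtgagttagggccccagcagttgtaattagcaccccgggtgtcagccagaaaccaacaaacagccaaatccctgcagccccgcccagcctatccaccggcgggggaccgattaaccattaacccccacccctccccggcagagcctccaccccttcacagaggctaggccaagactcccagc
GATA6, chr18:22169339-22169588: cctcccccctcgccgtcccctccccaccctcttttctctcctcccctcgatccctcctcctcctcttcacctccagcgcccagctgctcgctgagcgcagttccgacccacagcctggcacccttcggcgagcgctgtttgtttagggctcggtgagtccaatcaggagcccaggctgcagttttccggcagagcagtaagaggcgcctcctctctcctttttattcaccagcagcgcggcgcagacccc
FOXQ1, chr6:1311848-1312097: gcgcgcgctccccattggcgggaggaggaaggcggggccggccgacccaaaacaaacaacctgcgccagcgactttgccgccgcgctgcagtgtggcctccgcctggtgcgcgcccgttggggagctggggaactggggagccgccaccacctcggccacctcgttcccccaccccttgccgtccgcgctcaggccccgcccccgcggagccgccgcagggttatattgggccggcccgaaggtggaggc

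The starts of HNF4A lie 45540 bases apart, and the 3′ counts used here do not separate transcripts from these starts. GC content was 58.4% and 58.0% in the upstream and downstream HNF4A windows, 64.4% in the GATA6 window and 74.0% in the FOXQ1 window, against a median of 58.0% over 35116 promoters. Both strands were searched for 8 motifs, none contained in another, namely TGTTTAC for forkhead factors (in 2.98% of all promoter windows), AGATAA for the family of GATA factors (9.17%), CTTTGAT for TCF/LEF (2.26%), ACAATG for SOX factors (9.29%), AGGTGT for T-box factors (9.57%), GTCTAGAC for SMAD proteins (0.182%), CAAAGTCCA for HNF4 (0.325%) and AATCCACA for FOXH1 (0.709%). The upstream HNF4A window held AGATAA, beginning 26 bases before the start, and the reverse complement of AGGTGT, beginning 203 bases before it. None of the 8 motifs was found in the other printed windows or in those of PDGFRA and CXCR4, which says only that these letters are not there.

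On GRCh38 (GENCODE 44), SOX17 lies at 8:54457935-54460892 on the plus strand with 2 exons and GATA4 at 8:11676959-11760002 on the plus strand with 7. FOXA2 lies at 20:22580998-22585455 on the minus strand with 2 exons, and HNF4A at 20:44355699-44432845 on the plus strand with 10. GATA6 occupies 18:22169589-22202528 on the plus strand with 7 exons and FOXQ1 6:1312098-1314758 on the plus strand with 1. PDGFRA occupies 4:54229280-54298245 on the plus strand with 23 exons and CXCR4 2:136114349-136119177 on the minus strand with 2. PDGFRA shares 65993 bases with another annotated protein-coding gene on the same strand, so a split of its reads between both is possible. GATA6 and HNF4A are overlapped by antisense genes, and the strand setting of the counting is not given in the sources used here.

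SOX17, a SOX-family transcription factor needed for endoderm formation, was near 0 in naive cells (0 to 2 counts in each of the 6 naive libraries) and appeared at day 6. In N2B27 it stood at 0 to 0.518 CPM (0 to 3 counts) through days 2 to 4, with both day 4 libraries of Ex2 at 0, reaching 13.7 and 15.9 CPM by day 6 and 58.2 and 62.8 CPM by day 8. In mTeSR neither day 4 library held a count, day 6 gave 3.53 and 4.08 CPM and day 8 gave 35.7 and 35.1 CPM. E8 libraries held 3 counts each at day 6 and 6.53 and 4.46 CPM by day 8. The order N2B27, mTeSR, E8 held at days 6 and 8, with no overlap between the media. Against naive cells the ratio of counts at day 8 was 521 in N2B27 (95% interval 177 to 2533), 304 in mTeSR (103 to 1483) and 48.1 in E8 (15.6 to 241). The call for E8 at day 6 against naive cells (adjusted p = 0.0232) carries no fold, as both sides lay at the floor. It was lost without E8 day 6 replicate 1 (adjusted p = 0.109), E8 day 6 replicate 2 (0.0986) or Ex1 naive Geltrex replicate 2 (0.0541), without a filter (0.0660) and against naive cells of Ex1 alone (0.0523).

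**Figure D1:**
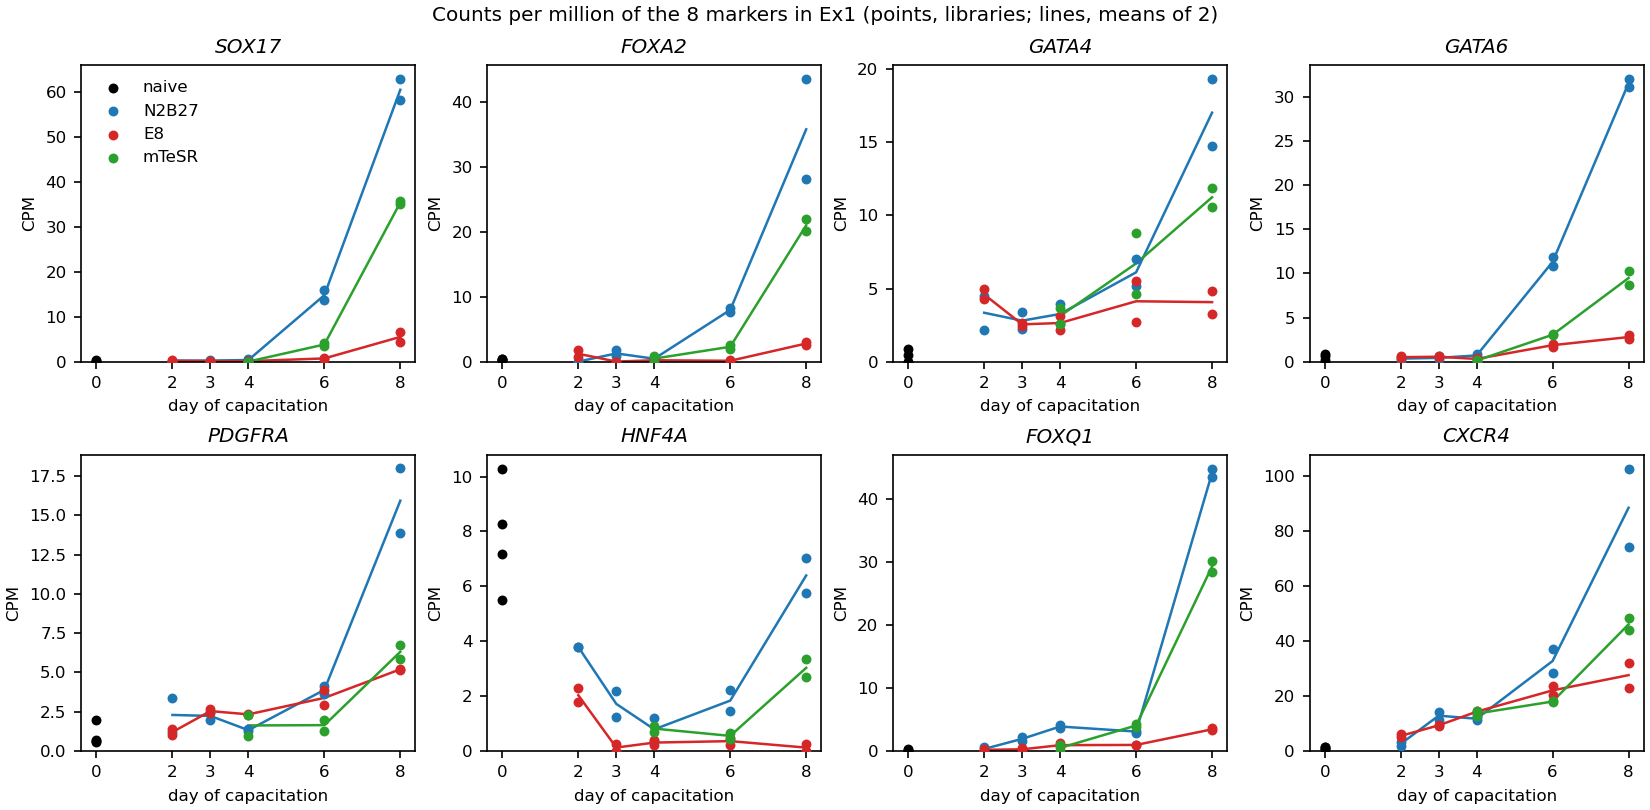
Level of each of the 8 members (CPM) against day in Ex1, with a point for each library, a line through the group means and the 4 naive libraries of Ex1 in black at day 0. SOX17, FOXA2 and GATA6 passed 5 CPM in N2B27 at day 6, every CXCR4 library lay above the naive ones from day 2 onward, and HNF4A dropped from naive cells before returning in N2B27.

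FOXA2, a forkhead pioneer factor of endoderm, node and floor plate, reached its higher levels late, as SOX17 did. Naive libraries held 0 to 2 counts. In N2B27 it reached 7.68 and 8.23 CPM at day 6 and 43.5 and 28.1 CPM at day 8. In mTeSR it was at 1.98 and 2.58 CPM at day 6 and at 21.9 and 20.1 CPM at day 8. In E8 it was at 0.241 and 0 CPM at day 6 and at 2.99 and 2.58 CPM at day 8. The day 8 ratio to naive cells was 129 in N2B27 (61.8 to 322), 77.2 in mTeSR (36.6 to 195) and 10.3 in E8 (4.38 to 28.1). Before day 6 the gene stayed between 0 and 7 counts, with no order of the media that lasted. It was called higher than in naive cells in E8 at day 2 (ratio 4.37, 1.31 to 14.6) and in N2B27 at day 3 (ratio 4.45, 1.57 to 13.5), calls that were lost without E8 day 2 replicate 1 (adjusted p = 0.436) and without N2B27 day 3 replicate 1 (0.283). The former was also lost without a filter (0.0723) and against naive cells of Ex1 alone (0.0501). It was called higher in E8 than in N2B27 at day 2 (5 and 2 counts against none, at least 1.70-fold over the floor of 3 counts per library) and lower at day 3 (none against 7 and 4 counts, at least 1.76-fold). The day 2 call was lost without N2B27 day 2 replicate 1 (adjusted p = 0.0975) or E8 day 2 replicate 1 (0.121), and the day 3 call without N2B27 day 3 replicate 1 (0.142), E8 day 3 replicate 1 (0.0793) or E8 day 3 replicate 2 (0.0662).

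FOXQ1, a forkhead factor best known from hair shaft and gut epithelium, rose in 2 separate steps in N2B27. It lay at 0 to 1 count in naive libraries, at 2.21 and 1.60 CPM at day 3, at 4.15 and 3.57 CPM at day 4 of Ex1 and still at 2.91 and 3.21 CPM at day 6. At day 8 it stood at 44.8 and 43.4 CPM. The step from day 6 to day 8 was a log2 fold change of 3.84 (SE 0.317, adjusted p = 2.98e-09, edgeR quasi-likelihood test). In mTeSR it went from 0.938 and 0 CPM at day 4 to 3.75 and 4.30 CPM at day 6 and 28.4 and 30.1 CPM at day 8, where both late steps were called (3.04, SE 0.598, and 2.85, SE 0.316). The first of these rests on 4 and 0 counts at day 4 and went from 2.07 without mTeSR day 4 replicate 2 to 7.18 without replicate 1. E8 held it at 0.963 and 0.907 CPM at day 6 and 3.55 and 3.28 CPM at day 8. The day 8 ratio to naive cells was 566 in N2B27 (156 to 4690), 376 in mTeSR (103 to 3127) and 44.1 in E8 (11.3 to 380).

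GATA4, a zinc finger factor of hypoblast, later endoderm and heart, was present before most of the other members. It was absent from the 4 naive libraries on Geltrex (0 counts) and present at 4 and 2 counts in the 2 on serum coating, and it was called higher than in naive cells in each of the 15 conditions. At day 2 it already stood at 2.19 and 4.49 CPM in N2B27 and at 4.94 and 4.25 CPM in E8 (log2 fold changes of 3.67, SE 0.629, and 4.14, SE 0.641). These folds rest on the 6 counts in naive cells and became 4.76 and 5.24 without Ex1 naive serum replicate 1. Through day 4 no further step was called in either medium. It then reached 5.19 and 7.03 CPM at day 6 and 19.3 and 14.8 CPM at day 8 in N2B27, and 4.63 and 8.81 CPM followed by 11.9 and 10.6 CPM in mTeSR. In E8 it was at 4.85 and 3.28 CPM at day 8, within the range of its day 2 to day 6 libraries (2.16 to 5.54 CPM). The rise from day 6 to day 8 in N2B27 was 1.47 (SE 0.321, adjusted p = 0.00618), which was lost without N2B27 day 6 replicate 1 (1.27, adjusted p = 0.104) or N2B27 day 8 replicate 1 (1.27, adjusted p = 0.0993).

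GATA6, the zinc finger factor that specifies hypoblast in the blastocyst and is also active in definitive endoderm and mesoderm, appeared later than GATA4. Naive libraries held 4 and 3 counts on serum coating and 0 to 1 count on Geltrex. In N2B27 it remained at 0.199 to 0.948 CPM through day 4 over both experiments, reached 10.8 and 11.8 CPM at day 6 and stood at 31.2 and 32 CPM at day 8. The step from day 4 to day 6 in N2B27 was 3.96 on the log2 scale (SE 0.378, adjusted p = 1.32e-08). In mTeSR it was at 3.09 and 3.01 CPM at day 6 and at 8.66 and 10.3 CPM at day 8, and in E8 at 1.68 and 2.04 CPM and then at 2.99 and 2.58 CPM. Against naive cells the day 8 log2 fold change was 6.55 in N2B27 (SE 0.353), 4.81 in mTeSR (SE 0.420) and 3.06 in E8 (SE 0.505), and without Ex1 naive serum replicate 1 these became 7.19, 5.46 and 3.71.

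HNF4A, a nuclear receptor of visceral endoderm, liver and gut, was the exception among the members, being highest in naive cells. The 6 naive libraries lay between 5.51 and 11.9 CPM (mean 9.11 ± 2.54 SD, n = 6), with 5.51 and 8.27 CPM on serum coating and 7.19 to 11.9 CPM on Geltrex. In N2B27 it fell to 3.79 and 3.78 CPM at day 2 and to 1.21 and 0.357 CPM at day 4 of Ex1, then stood at 1.45 and 2.21 CPM at day 6 and at 7.03 and 5.76 CPM at day 8. The day 2 call was lost without N2B27 day 2 replicate 1 (adjusted p = 0.0525) or replicate 2 (0.0631). The day 8 libraries in N2B27 lay inside the naive range (adjusted p = 0.211). In E8 it was at 0 to 2 counts from day 3 to day 8, a ratio of 84.5 below naive cells at day 8 (15 to 3352). In mTeSR it fell to 0.661 and 0.430 CPM at day 6 and was at 2.7 and 3.35 CPM at day 8, still lower than in naive cells (-1.57, SE 0.379, adjusted p = 0.00093). The return from day 6 to day 8 was called in N2B27 (1.78, SE 0.423, adjusted p = 0.0118) and in mTeSR (ratio 5.55, 2.05 to 18.8). The N2B27 call was lost without N2B27 day 6 replicate 1 (adjusted p = 0.142), N2B27 day 6 replicate 2 (0.0631) or N2B27 day 8 replicate 1 (0.105), and under DESeq2 (0.0663). The mTeSR call was lost without any of its 4 libraries (adjusted p = 0.148 and 0.250 without day 6 replicates 1 and 2, 0.0850 and 0.202 without day 8 replicates 1 and 2), and under DESeq2 (0.107).

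PDGFRA, the receptor for platelet-derived growth factor that marks both hypoblast and early mesoderm, had its highest levels at day 8 in N2B27. Naive libraries ran from 0.340 to 1.99 CPM with a median of 0.662 CPM. In N2B27 of both experiments it lay between 1.18 and 4.15 CPM from day 2 to day 6 and rose to 18 and 13.9 CPM at day 8 (2.02 over the last step, SE 0.338, adjusted p = 0.000248). At day 8 it was at 6.76 and 5.86 CPM in mTeSR and at 5.23 and 5.16 CPM in E8. It was called against naive cells in all conditions except E8 at day 2 and mTeSR at days 4 and 6, whose libraries held 0.938 to 2.29 CPM. The early calls in N2B27 were fragile. That of day 3 was lost in 10 of 15 alternatives, among them DESeq2 (adjusted p = 0.0574), plain library totals (0.0516) and no filter (0.0880). At day 3 the adjusted p was 0.0487, and it rose to 0.255 without N2B27 day 3 replicate 1 and to 0.106 without N2B27 day 3 replicate 2. At day 2 the call was lost without N2B27 day 2 replicate 1 (0.39 on the log2 scale, adjusted p = 0.730). Its calls in E8 at days 3 and 4, in N2B27 at day 4 and in FAX were also lost without single libraries (adjusted p up to 0.109 without E8 day 3 replicate 2, 0.124 without E8 day 4 replicate 2, 0.0613 without Ex2 N2B27 day 4 replicate 1 and 0.0732 without FAX replicate 2). Ex1 N2B27 libraries at day 4 (1.38 and 1.25 CPM) lay inside the naive range, and the day 4 value within Ex1 was 0.55 (SE 0.501, adjusted p = 0.421).

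CXCR4, the chemokine receptor used to sort definitive endoderm and also present on primed pluripotent cells and mesoderm, rose early and in every medium. Naive libraries ran from 0.276 to 1.52 CPM with a median of 0.676 CPM. At day 2 it was at 5.99 and 4.91 CPM in E8, already higher than in naive cells (2.51, SE 0.558, adjusted p = 0.000404), and at 3.19 and 1.89 CPM in N2B27, above every naive library and short of the p threshold (1.45, SE 0.592, adjusted p = 0.0543) except under DESeq2 and 4 of the other settings. By day 3 it stood at 14.2 and 11.4 CPM in N2B27 and at 9.07 and 9.46 CPM in E8, log2 fold changes of 3.74 (SE 0.420) and 3.28 (SE 0.446). At day 4 the 3 media of Ex1 lay between 11.1 and 14.5 CPM. N2B27 then held 28.4 and 36.9 CPM at day 6, where neither E8 nor mTeSR passed both thresholds against it, and 103 and 74.2 CPM at day 8. mTeSR held 17.9 and 18 CPM and then 43.8 and 48.2 CPM, and E8 held 23.6 and 20.4 CPM and then 32.1 and 23 CPM. Its day 8 log2 fold change against naive cells was 6.53 in N2B27 (SE 0.327), 5.59 in mTeSR (SE 0.353) and 4.86 in E8 (SE 0.368).

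Counted over the members, N2B27 called 3 of 8 against naive cells at day 2 (GATA4 and PDGFRA higher, HNF4A lower; 16.2% of all genes tested were called), 6 by day 3 (15.6%), 5 by day 4 (18.4%), 8 by day 6 (23.1%) and 7 by day 8 (23.9%). For E8 the count went from 4 on day 2 (24.6%) through 4 on day 3 (17.8%), 5 on day 4 (20.8%) and 7 on day 6 (23.3%) to 8 on day 8 (27.5%). For mTeSR it went from 3 on day 4 (19.8%) through 7 on day 6 (22.5%) to 8 on day 8 (25.2%). In each of these media the members called at day 8 were higher, except HNF4A in E8 and mTeSR. For all genes, 16.9% were called higher and 7.03% lower in N2B27 at day 8, 18.2% and 9.24% in E8, and 16.9% and 8.21% in mTeSR. The median log2 fold change of the 8 members at day 8 was 6.54 in N2B27 (5.66 when floor genes take their bound instead), 5.51 in mTeSR (4.83) and 3.61 in E8 (2.47), beside a median of -0.03 to 0.00 over all genes tested. These comparisons share their 6 naive libraries.

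Whether the medium altered the members was then asked at equal days. At day 8 all 8 members were lower in E8 than in N2B27, where 7.29% of all genes were called (3.33% higher and 3.96% lower in E8), and the median difference of the members was -3.46 on the log2 scale (-3.31 with bounds) beside 0.01 over all genes. FOXQ1 (-3.67, SE 0.313, adjusted p = 5.82e-10), FOXA2 (-3.66, SE 0.353, 9.24e-09), GATA6 (-3.48, SE 0.294, 5.13e-10) and SOX17 (-3.44, SE 0.257, 6.48e-11) differed by similar amounts. GATA4 (-2.03, SE 0.339), CXCR4 (-1.67, SE 0.183) and PDGFRA (-1.61, SE 0.326, adjusted p = 0.000574) differed less. HNF4A counted 64 in N2B27 and 1 in E8, a ratio of 60.9 (10.5 to 2442). No library of E8 reached the level of any N2B27 library for any of the 8, but how many of all genes separated in this way was not counted. Each of the 8 calls was kept in every alternative run.

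Between mTeSR and N2B27 at day 8 the members were closer. GATA6 and PDGFRA alone passed the test (3.81% of all genes were called, 1.65% higher and 2.16% lower in mTeSR). Both mTeSR libraries lay below both N2B27 libraries for all 8 genes, but how many of all genes separated in this way was not counted. The log2 fold change in mTeSR was -1.73 for GATA6 (SE 0.259, adjusted p = 2.96e-05) and -1.33 for PDGFRA (SE 0.329, adjusted p = 0.00702). The PDGFRA call was lost without N2B27 day 8 replicate 1 (-1.13, adjusted p = 0.0812), without mTeSR day 8 replicate 2 (-1.23, 0.0937) and under DESeq2 (-1.34, 0.0506). SOX17 (adjusted p = 0.0178) and CXCR4 (0.00053) passed the p threshold and not the fold threshold. HNF4A passed the fold threshold alone (-1.07, SE 0.412, adjusted p = 0.0951). FOXA2 (0.0857), FOXQ1 (0.136) and GATA4 (0.246) passed neither, which does not show that their levels were equal. Whether GATA6 differed more between these media than SOX17 did was not tested. The median difference was -0.86 for the members and -0.01 over all genes.

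mTeSR and E8, both media for primed cells, differed in 6 of 8 members at day 8, all higher in mTeSR (5.31% of all genes were called, 2.51% higher and 2.79% lower in mTeSR). The log2 fold changes were 3.08 for FOXQ1 (SE 0.321), 2.89 for FOXA2 (SE 0.365), 2.66 for SOX17 (SE 0.264), 1.75 for GATA6 (SE 0.323) and 1.44 for GATA4 (SE 0.359, adjusted p = 0.00661), and HNF4A had a ratio of 29.1 (4.70 to 1199). The GATA4 call was lost without E8 day 8 replicate 2 (1.21, adjusted p = 0.0527) or mTeSR day 8 replicate 1 (1.36, 0.0517). PDGFRA did not pass (0.681), and CXCR4 passed the p threshold alone (0.00913). The median difference was 2.21 for the members (1.93 with bounds) and near 0 over all genes.

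**Figure D2:**
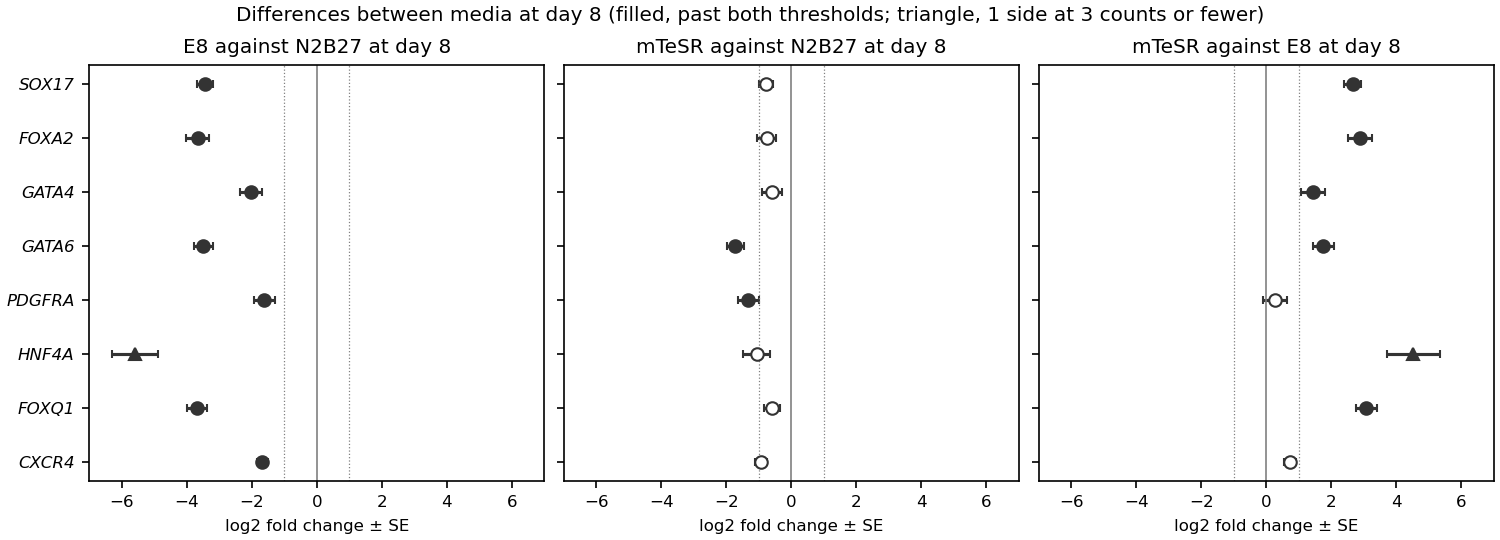
Log2 fold change between media at day 8 for each member (point, fitted value; bar, SE; dotted lines, the fold threshold of 1 on the log2 scale), with filled symbols for members called and triangles where 1 side was at the floor, so that the fitted value there depends on the fit and is no measured size. All 8 members lay left of 0 in E8 against N2B27, and GATA6 and PDGFRA alone were called in mTeSR against N2B27.

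The same direction was present at day 6 for fewer genes. E8 was lower than N2B27 in 5 of 8 members (5.28% of all genes), with a ratio of 21.1 for SOX17 (9.47 to 58.5), 68.2 for FOXA2 (11.9 to 2727) and 5.24 for HNF4A (1.53 to 27.8), and differences of -2.58 for GATA6 (SE 0.339) and -1.68 for FOXQ1 (SE 0.539, adjusted p = 0.0310). The HNF4A call (adjusted p = 0.0258) and the FOXQ1 call did not survive several omissions of single libraries: the adjusted p reached 0.216 for HNF4A without E8 day 6 replicate 2 and 0.170 for FOXQ1 without E8 day 6 replicate 2. Both were also lost under DESeq2 (0.101 and 0.0690) and without a filter on low counts (0.0675 and 0.0606), and HNF4A with only the libraries compared fitted (0.0573). mTeSR was lower than N2B27 in 3 of 8 (2.62%), with log2 fold changes of -1.95 for SOX17 (SE 0.295), -1.88 for GATA6 (SE 0.308) and -1.79 for FOXA2 (SE 0.405). The FOXA2 difference was lost without mTeSR day 6 replicate 1 (-1.62, adjusted p = 0.0695). mTeSR was higher than E8 in 3 of 8 (1.10%), SOX17 (ratio 5.43, 2.26 to 15.8), FOXA2 (19.6, 3.15 to 809) and FOXQ1 (2.07 on the log2 scale, SE 0.518). Each of these 3 calls was lost when single libraries were left out, with adjusted p of up to 0.0972 for SOX17 without E8 day 6 replicate 2, 0.188 for FOXA2 without the same library and 0.201 for FOXQ1 without the same library. DESeq2 lost FOXA2 (0.132) and FOXQ1 (0.0530).

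Before day 6 few members differed between media. E8 against N2B27 called 1 of 8 at day 2 (FOXA2, higher; 4.54% of all genes), 3 at day 3 (FOXA2, HNF4A and FOXQ1, lower; 1.68%) and 1 at day 4 (FOXQ1, lower in E8, -2.05, SE 0.491; 2.49%). At day 3 HNF4A had a ratio of 15.9 (2.48 to 668) and FOXQ1 of 8.46 (2.01 to 75.5). The HNF4A call was lost without E8 day 3 replicate 2 (adjusted p = 0.0896) or N2B27 day 3 replicate 2 (0.0721), and the FOXQ1 call without E8 day 3 replicate 2 (0.164) or N2B27 day 3 replicate 1 (0.156). With only the libraries compared fitted, all 3 calls of day 3 were lost (0.513 for FOXA2 and HNF4A and 0.549 for FOXQ1), where 6 genes in all were called and not 280, and so was the FOXA2 call of day 2 (0.118). The FOXQ1 call at day 4 was lost without E8 day 4 replicate 1 (0.145) or N2B27 day 4 replicate 1 (0.0625). mTeSR against N2B27 called FOXQ1 alone at day 4 (-2.98, SE 0.588, adjusted p = 0.00219; 1.58% of all genes), and without mTeSR day 4 replicate 2, which held 0 counts, that call was lost (-2.01, adjusted p = 0.0803). mTeSR against E8 called none of the 8 at day 4 in edgeR, with 0 of them at an unadjusted p under 0.05, and 0.084% of all genes were called. DESeq2 also called none, with a missing adjusted p taken as not called.

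In time, the members moved in stages. From day 2 to day 4, N2B27 called FOXQ1 (ratio 11.9, 3.82 to 59.9) and CXCR4 (2.16, SE 0.309) higher and HNF4A lower (8.91% of all genes), and E8 called CXCR4 higher (1.39, SE 0.293) and HNF4A lower (ratio 6.71, 1.81 to 37.1; 13.3%). Both HNF4A calls depended on single libraries, with an adjusted p of 0.0627 in N2B27 without N2B27 day 4 replicate 2, and of 0.0645 and 0.0607 in E8 without E8 day 2 replicate 2 or E8 day 4 replicate 1. From day 4 to day 6, N2B27 called 5 members higher (3.89%), SOX17 with a ratio of 42.2 (16.1 to 157), FOXA2 with 18.1 (7.45 to 57.4), GATA6, CXCR4 (1.48, SE 0.208) and PDGFRA (1.54, SE 0.450, adjusted p = 0.0209). The PDGFRA call was lost without any of its 4 libraries, with the adjusted p reaching 0.128 without N2B27 day 4 replicate 2, and under DESeq2 (0.0754). The same days called GATA6 alone in E8 (ratio 6.16, 1.76 to 33.0), beside 2.51% of all genes. In mTeSR they called 4 members (2.92%), SOX17 (at least 5.41-fold), GATA6 (ratio 26.3, 4.34 to 1074), FOXQ1 and FOXA2 (2.23, SE 0.684, adjusted p = 0.0380). The FOXA2 step in mTeSR rests on 0 and 4 counts at day 4 and ran from 1.29 to 6.37 over the alternatives. The FOXA2 call was lost without mTeSR day 4 replicate 1 (1.29, adjusted p = 0.380), day 6 replicate 1 (0.0806) or day 6 replicate 2 (0.202), under DESeq2 (0.0964), without a filter (0.0579) and with only the libraries compared fitted (0.0949). The E8 call of GATA6 was lost without any of its 4 libraries (adjusted p 0.0554 to 0.186), under DESeq2 (0.0987) and without a filter (0.0563).

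From day 6 to day 8, N2B27 called all 8 members higher, where 1.43% of all genes were called. The median step of the members was 1.9 on the log2 scale and that of all genes -0.02. FOXQ1 stepped furthest, followed by FOXA2 (2.16, SE 0.306), SOX17 (2.03, SE 0.228) and PDGFRA, then HNF4A, GATA6 (1.48, SE 0.247), GATA4 and CXCR4 (1.43, SE 0.180). mTeSR called 7 of 8 higher (0.978% of all genes), with SOX17 at 3.21, FOXA2 at 3.19, FOXQ1 at 2.85, PDGFRA at 1.93, GATA6 at 1.63 and CXCR4 at 1.36, and with HNF4A as given above, while GATA4 did not pass (adjusted p = 0.345). The PDGFRA and GATA6 steps in mTeSR were lost without single libraries, with adjusted p of 0.183 for PDGFRA without mTeSR day 6 replicate 2 and 0.0644 for GATA6 without mTeSR day 8 replicate 2, and that of GATA6 under DESeq2 (0.0697). E8 called 2 of 8 higher (0.804%), SOX17 (ratio 8.01, 3.45 to 22.8) and FOXA2 (ratio 24.0, 3.96 to 984). The FOXA2 call was lost without E8 day 6 replicate 2 (adjusted p = 0.142) or E8 day 8 replicate 1 (0.0683). In a fit to the E8 libraries of these days alone both were lost (0.0851 for SOX17 and 0.137 for FOXA2), where 2 genes in all were called and not 134.

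**Figure D3:**
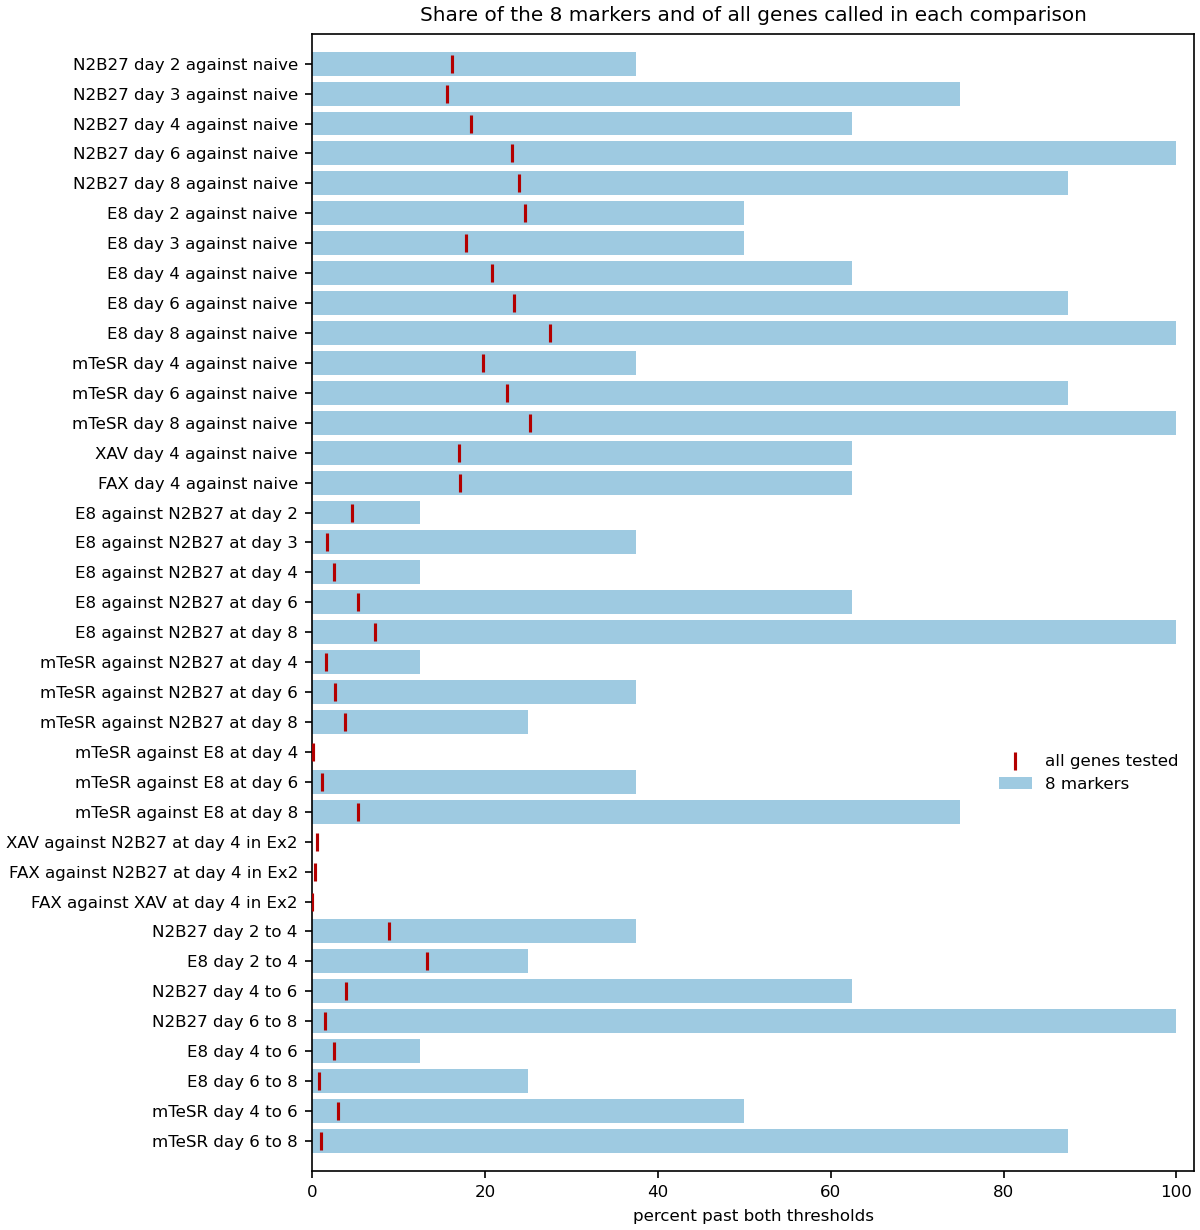
Percent of the 8 members (bars) and of all genes tested (red marks) that passed both thresholds in each comparison with naive cells, between media and between days. The bars reach 100% in N2B27 at day 6 and in E8 and mTeSR at day 8 against naive cells, in E8 against N2B27 at day 8, and in N2B27 from day 6 to day 8.

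The genes known for definitive endoderm and those known for hypoblast overlapped in timing. The step from day 4 to day 6 called SOX17, FOXA2 and GATA6 as higher in both N2B27 and mTeSR, the mTeSR call of FOXA2 being one that single libraries ended. GATA4 and CXCR4 were already above naive cells at day 4 in N2B27, E8 and mTeSR, and HNF4A was below naive cells in all 3 media. The day 4 calls of PDGFRA in N2B27 and E8 were lost in the settings given above. In mTeSR against N2B27 at day 8, GATA6 and PDGFRA were called, the latter not in every setting, while GATA4, HNF4A, SOX17, FOXA2 and CXCR4 were not. A difference between these genes was not tested.

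The change from day 4 to day 8 was compared between media by interaction contrasts, which called 2 of 8 members for E8 against N2B27 (1.43% of all genes), 2 for mTeSR against N2B27 (1.69%) and 1 for mTeSR against E8 (0.960%). CXCR4 and PDGFRA climbed less in E8 than in N2B27, with differences of -1.95 (SE 0.291, adjusted p = 8.37e-05) and -2.41 (SE 0.589, adjusted p = 0.0199). CXCR4 also climbed less in mTeSR than in N2B27 (-1.15, SE 0.293, adjusted p = 0.0224), whereas FOXQ1 climbed more in mTeSR, from its lower day 4 level, than in N2B27 (2.39, SE 0.666, adjusted p = 0.0492) and in E8 (4.01, SE 0.870, adjusted p = 0.0103). The CXCR4 call in E8 against N2B27 was kept in every alternative. The other 4 calls were each lost without single libraries, with an adjusted p of 0.0936 for PDGFRA without E8 day 4 replicate 2, 0.145 for CXCR4 in mTeSR against N2B27 without N2B27 day 8 replicate 1 (-0.90), and 0.324 (1.42) and 0.0677 (3.04) for FOXQ1 in mTeSR against N2B27 and against E8 without mTeSR day 4 replicate 2. PDGFRA was also lost under DESeq2 (0.0654). The FOXQ1 call against N2B27 was lost in 13 of its 14 alternatives, with an adjusted p of 0.0513 under RLE scaling and 0.151 under DESeq2. Over the alternatives the FOXQ1 difference ran from 1.42 to 6.53 against N2B27 and from 3.04 to 8.15 against E8. FOXQ1 against E8 was also lost without E8 day 4 replicate 2 (3.49, adjusted p = 0.243). SOX17, FOXA2 and GATA6, at or near the floor at day 4, were not called in these contrasts.

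In Ex2, the addition of XAV939, or of FGF2, Activin A and XAV939, was compared with N2B27 alone at day 4. None of the 8 members was called between these media in edgeR, for XAV against N2B27 (0.570% of all genes), FAX against N2B27 (0.336%) or FAX against XAV (0.012%). DESeq2 called none either, with a missing adjusted p taken as not called. At an unadjusted p under 0.05 in edgeR there were 2 members in XAV against N2B27 (GATA6 and CXCR4), 3 in FAX against N2B27 (SOX17, FOXA2 and CXCR4) and 1 in FAX against XAV (FOXA2). All of these but CXCR4 were at the floor in at least 1 of the media compared. The share of all genes at this unadjusted p was not counted. SOX17 stayed at 0 to 0.508 CPM and FOXA2 at 0 to 0.794 CPM in the 6 libraries. FOXQ1 held 1.56 and 2.37 CPM in N2B27, 2.81 and 2.98 CPM in XAV and 2.28 and 2.59 CPM in FAX. CXCR4 held 30.6 and 35.3 CPM, 22.3 and 25.8 CPM, and 23.6 and 17.7 CPM, without overlap between N2B27 and the others (adjusted p = 0.419 for XAV and 0.139 for FAX). Against naive cells, XAV called 5 of 8 members (17.0% of all genes) and FAX 5 of 8 (17.1%), the same 5 in each, GATA4, PDGFRA, FOXQ1 and CXCR4 higher and HNF4A lower. In FAX, the medium with Activin A, FOXA2 was at 0 counts and GATA6 at 0.254 and 0.236 CPM at day 4.

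**Figure D4:**
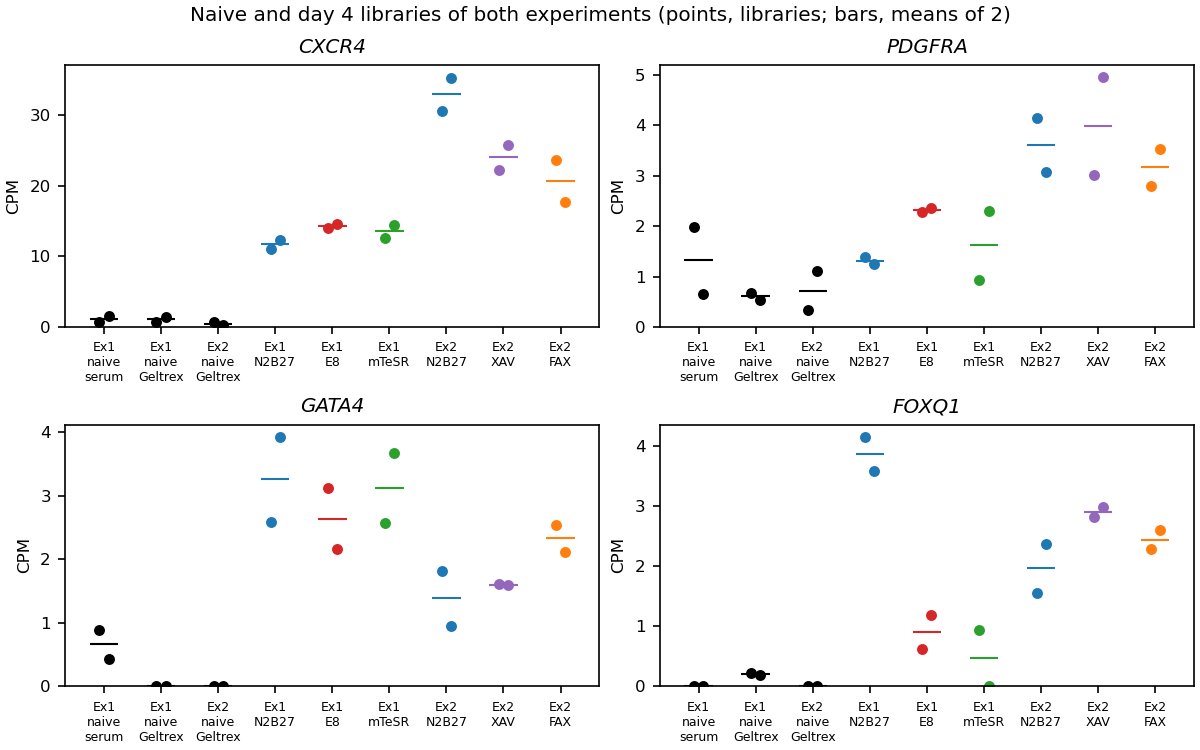
Level of CXCR4, PDGFRA, GATA4 and FOXQ1 (CPM) in the naive and day 4 libraries of both experiments, with a point for each library and a bar at the mean of 2. CXCR4 stood at 30.6 and 35.3 CPM in N2B27 of Ex2, above every other day 4 library.

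N2B27 at day 4 was made in both experiments, and CXCR4 was the 1 member that differed between them (1.01% of all genes), with 30.6 and 35.3 CPM in Ex2 and 11.1 and 12.3 CPM in Ex1 (1.5, SE 0.211, adjusted p = 4.8e-05). At an unadjusted p under 0.05 there were 5 members, CXCR4 and PDGFRA higher in Ex2 and SOX17, GATA4 and FOXQ1 higher in Ex1. All 5 were without overlap between the experiments, though SOX17 was at the floor in both (3 and 1 counts against 0). The share of all genes without overlap, or at such a p here or in the naive comparisons below, was not counted. In edgeR, and in DESeq2 with a missing adjusted p taken as not called, none of the 8 was called between naive cultures. This held on Geltrex between the experiments (4.67% of all genes) and between Geltrex and serum coating in Ex1 (0.048%). At an unadjusted p under 0.05 there were 0 members in the former and 2 in the latter, GATA4 and GATA6, both at the floor on Geltrex. The 8 genes behind the share of 0.048% became 146 without Ex1 naive serum replicate 2, 0 without Ex1 naive serum replicate 1 or Ex1 naive Geltrex replicate 2, 1 without Ex1 naive Geltrex replicate 1, and 106 without a filter on low counts. GATA4 and GATA6 counts in naive cells were 4 and 2 for GATA4 and 4 and 3 for GATA6 in the serum libraries, at or near the floor.

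Other genes of the same lineages were then read from lists of markers. Of the definitive endoderm and anterior streak list, 9 of 11 genes were tested, and 8 of them were lower in E8 than in N2B27 at day 8 (median difference -2.62, beside 0.01 over all genes, 3.96% of which were lower). EOMES, a T-box factor of streak and endoderm, stood at a mean of 65.2 CPM in N2B27, 36.5 CPM in mTeSR, 8.47 CPM in E8 and 0.82 CPM in naive cells. LHX1 stood at 134, 49.5, 10.5 and 1.36 CPM in the same order, MIXL1 at 122, 96.9, 12.6 and 12.2 CPM, and the secreted Nodal antagonist CER1 at 31.6, 36.2, 2.60 and 0 CPM. Against naive cells the list had 6 genes higher and none lower in N2B27, 6 higher and 1 lower in mTeSR, and 5 higher and 2 lower (HHEX and PRDM1) in E8. Of all genes tested, 16.9% were higher and 7.03% lower in N2B27, 16.9% and 8.21% in mTeSR, and 18.2% and 9.24% in E8. Between mTeSR and N2B27 it had 2 lower (LHX1 and CYP26A1), beside 2.16% of all genes. FOXA1 lay at or near 0 in N2B27 at day 8.

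Of the hypoblast and yolk sac endoderm list, 11 of 14 genes were tested, and 7 were lower in E8 than in N2B27 at day 8 (RSPO3, FRZB, BMP2, APOA1, LAMA1, LAMB1 and IHH; 3.96% of all genes were lower). The median difference of the list was -1.42, beside 0.01 over all genes. APOA1, an apolipoprotein made by yolk sac and liver, stood at a mean of 19.5 CPM in N2B27, 0.97 CPM in mTeSR, 0.12 CPM in E8 and 0 in naive cells. RSPO3 stood at 12.4, 0.96, 0.19 and 0.16 CPM, and BMP2 at 44.1, 13.5, 3.70 and 37.6 CPM. These 3 genes were also lower in mTeSR than in N2B27 (2.16% of all genes). Against naive cells 8 genes were higher and none lower in N2B27, 6 higher and 1 lower in mTeSR, and 4 higher and 1 lower in E8, where 16.9%, 16.9% and 18.2% of all genes were higher and 7.03%, 8.21% and 9.24% lower in these media. Transthyretin (TTR) and alpha-fetoprotein (AFP), defining products of visceral and yolk sac endoderm, were at or near 0 in N2B27 at day 8.

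Markers of other lineages moved with the members, and their part in the results was not tested. The 5 mesoderm genes tested, of 8 listed, were all higher than in naive cells in N2B27 and in mTeSR at day 8 and 3 were in E8 (16.9%, 16.9% and 18.2% of all genes), with TBXT at a mean of 62.8, 35.2 and 15.4 CPM in N2B27, mTeSR and E8. Their summed level was 1.54 to 3.74 CPM in naive libraries, 127 to 155 CPM in N2B27, 54.1 to 76.5 CPM in mTeSR and 41.3 to 42.2 CPM in E8. Of the trophectoderm and amnion list, 5 of 6 genes tested were higher and none lower than in naive cells in N2B27, 1 was higher and 1 lower (ISL1) in mTeSR, and 2 were higher and 2 lower (CDX2 and ISL1) in E8, beside the same shares of all genes. In mTeSR against N2B27, 3 of these 6 (GATA3, GATA2 and CDX2) and 2 of the 5 mesoderm genes (HAND1 and APLNR) were lower (2.16% of all genes), and in E8 against N2B27, 5 of the 6 (all but GABRP) and 4 of the 5 (all but KDR) were lower (3.96%). Its summed level was 9.93 to 18.5 CPM in naive libraries, 65.3 to 79.5 CPM in N2B27, 13.4 to 17.6 CPM in mTeSR and 16.6 to 23.2 CPM in E8. KRT7, VTCN1, the germ cell gene NANOS3 and the mesoderm gene MSGN1 lay at or near 0 in N2B27 at day 8. None of the 4 tested primordial germ cell genes was higher there than in naive cells, and SOX15 was lower. Of the 7 pluripotency and naive genes, 4 were lower in all 3 media (KLF17, SUSD2, DPPA5 and DNMT3L).

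**Figure D5:**
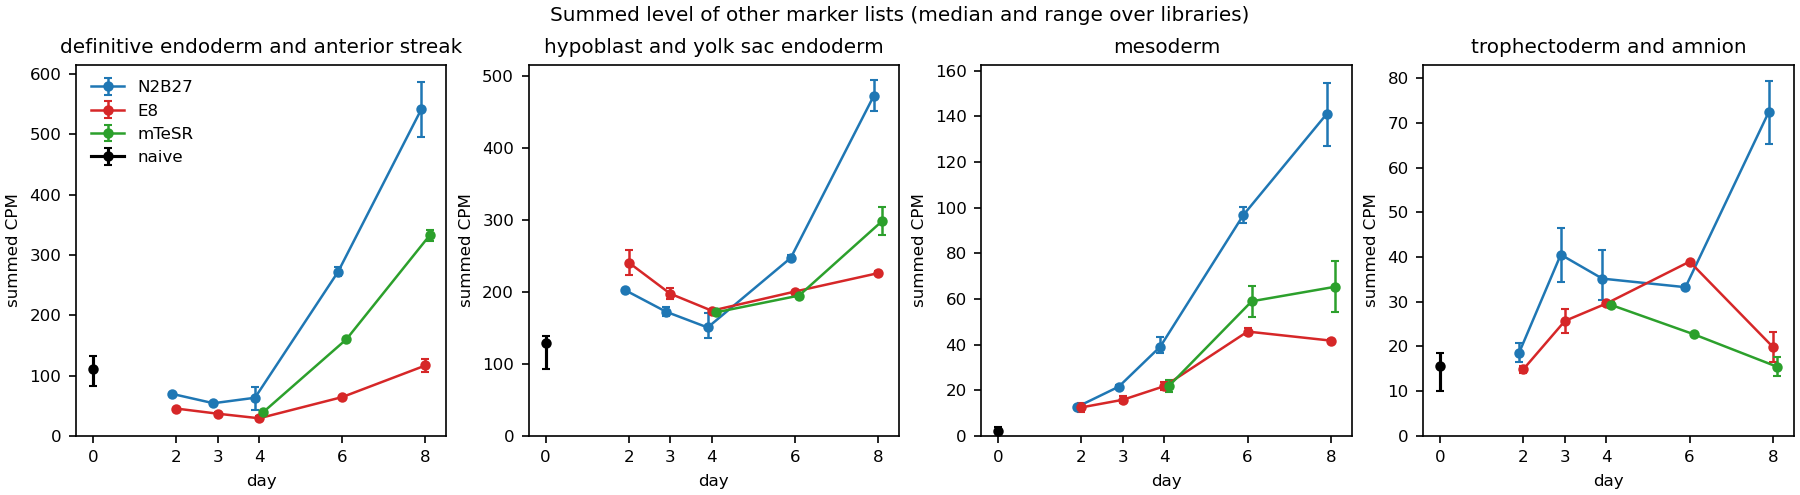
Summed level of 4 marker lists (CPM) against day, as the median (point) and range (bar) over libraries, with the 6 naive libraries at day 0 and with N2B27 day 4 pooled over both experiments. At day 8 the definitive endoderm list stood at 496 to 587 CPM in N2B27, 324 to 341 CPM in mTeSR and 107 to 127 CPM in E8, and the trophectoderm and amnion list lay above its naive range in N2B27 and within it in mTeSR.

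The summed definitive endoderm list lay at 496 to 587 CPM in N2B27, 324 to 341 CPM in mTeSR and 107 to 127 CPM in E8 at day 8, the last within the naive range of 83.4 to 133 CPM. The summed hypoblast list lay at 451 to 495 CPM, 278 to 318 CPM and 224 to 228 CPM, above the naive range of 92.2 to 139 CPM in each medium. At day 2 it already lay at 202 to 204 CPM in N2B27 and 223 to 259 CPM in E8. Called higher than in naive cells at that day were COL4A1, COL4A2 and LAMB1, and in E8 also LAMA1. In E8 at day 8 these were NID2, FRZB, COL4A1 and COL4A2, with a list median of 0.47 (0 with bounds). BMP2 was called lower in each of these cases. No test compared the lists with each other. The summed level of the 8 members was 9.71 to 13.2 CPM in naive libraries, 275 to 325 CPM in N2B27, 160 to 164 CPM in mTeSR and 44.6 to 58.2 CPM in E8.

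Across the 19 group means, the members' patterns were compared as a description, over groups that share a cell line and, in part, an experiment. SOX17 was at the floor in 14 of the 19 groups and FOXA2 and GATA6 in 10 each, so the ranks of these genes among those groups rest on 0 to 3 counts a library and their correlations carry little weight. Among members, PDGFRA and CXCR4 were most alike (Spearman correlation 0.916), followed by FOXQ1 and CXCR4 (0.816), SOX17 and FOXQ1 (0.774), SOX17 and GATA4 (0.751) and GATA4 and GATA6 (0.745). HNF4A correlated with the other members at -0.319 to 0.0633. Among the 13761 genes that reached 5 CPM in a group, those most like SOX17 were OGA (0.877), KHDRBS1 (0.866) and the T-box factor EOMES (0.859), and those most like HNF4A were HHEX (0.893), TRIM13 (0.889) and FZD8 (0.888). The genes most like GATA6 were SMAD9 (0.874), ZEB2 (0.868) and KIAA1147 (0.867), those most like GATA4 CELF2 (0.973), PTPRG (0.940) and CDC42EP3 (0.938), and those most like FOXQ1 AC096537.1 (0.969), EID1 (0.964) and SP5 (0.946). PDGFRA was most like KDR (0.935), a receptor of vascular and early mesoderm cells, CXCR4 and CALB1 (0.909). CXCR4 was most like AC020928.1 (0.925), C5orf30 and RND3 (0.919), and FOXA2 like KDM3A (0.830), DTNB and ETAA1 (0.779).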

How the data were processed

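RNA of 38 libraries was measured by QuantSeq 3′ sequencing. The authors processed the reads with the nf-core RNA-seq pipeline against hg38, with FastQC 0.11.9, STAR 2.7.10a and Salmon 1.9.0, and deposited 1 table of whole-number read counts per gene, not normalized. The annotation release and the strand setting are not given in the sources used here. From these counts, CPM were computed with library totals multiplied by their TMM factors (0.902 to 1.07). Genes were tested in R 4.3.3 with edgeR 4.0.16 (TMM, filterByExpr, glmQLFit and glmQLFTest) and Benjamini-Hochberg adjustment, where 16674 genes held 99.65% of the counts. Comparisons with naive cells used 1 fit with 16 levels, in which the 6 naive libraries and the 4 N2B27 day 4 libraries were pooled, and all others used 1 fit with 19 groups. The members and the marker lists were chosen with earlier results of these data known. The genes named were the 8 members, the genes of the marker lists and, per member, the 3 genes with the most similar pattern over the 19 groups. Log2 fold changes are given for members called in that comparison, and those of HNF4A (mTeSR against N2B27, day 8), CXCR4 (N2B27, day 2) and PDGFRA (N2B27, day 4 within Ex1) were added after their values were seen.

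Replicates differed by more than sampling noise in each of the 19 pairs (chi-square per degree of freedom 1.37 to 11.6 over genes with a pair mean of at least 20 counts). All libraries were kept as separate. An excess over counting noise does not show that the libraries of a pair came from separate cultures. Same-numbered libraries of different groups did not deviate together in general (171 pairs of groups, median correlation 0.0031, 7 pairs over 0.1). Single pairs of groups ranged from -0.35 to 0.258. Replicate numbers were not used to pair samples. The Ex2 naive libraries were taken as day 0 from their titles, although their library names carry day 4. Alternatives were RLE scaling, plain library totals, no filter on low counts, more than 10 counts in at least 2 libraries, a replicate block, DESeq2 1.42.0, naive libraries of the same experiment only, a fit to the compared libraries alone, and leaving out each library. For the last, the dispersion trend of the whole data was held and the quasi-likelihood dispersion re-estimated, so a lone library was taken to vary like the other groups. The pipeline was tested on simulated data. Promoter windows were matched by symbol to RefSeq (GRCh38.p14) and positions to GENCODE 44.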

Additional observations from a re-analysis of the deposited data

Results flagged for a closer look

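The change from day 4 to day 8 differed between media, by an interaction contrast in edgeR, for the following members, with no cause tested. CXCR4 changed by -1.95 on the log2 scale in E8 relative to N2B27 and by -1.15 in mTeSR relative to N2B27. PDGFRA changed by -2.41 in E8 relative to N2B27. FOXQ1 changed by 2.39 in mTeSR relative to N2B27 and by 4.01 in mTeSR relative to E8. All but the -1.95 for CXCR4 were lost without some single library, and FOXQ1 in mTeSR rested on 4 and 0 counts at day 4. Among the 6 naive libraries and the 4 N2B27 day 4 libraries, no member had a library that stood apart by Dixon's test.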

How the results depend on the processing

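Each pair of a member and a comparison was counted, and the share of all genes called is given with each comparison above. With the main settings, 85 of 120 pairs were called with naive cells, 33 of 88 between media in Ex1 and 0 of 24 between media in Ex2. Between days 32 of 64 pairs were called, between media in the change from day 4 to day 8 5 of 24, and between cultures or experiments 1 of 24. Of the 156 calls, 115 were kept in every setting, 41 were lost in at least 1 and none reversed. Leaving out 1 library at a time gave 83 to 86, 28 to 34, 0 to 0, 28 to 32, 2 to 5 and 1 to 1 calls. Under DESeq2 the interaction count was 2, with 14 calls lost over all comparisons and 6 more without an adjusted p. In all, DESeq2 gave no adjusted p for 58 of the 344 pairs, so a lack of calls there can mean a lack of results. The replicate block gave 84, 33, 0, 32, 4 and 1 calls, losing PDGFRA in N2B27 at day 3 against naive cells and FOXQ1 in the mTeSR against N2B27 interaction (adjusted p = 0.0539), and it changed no other call. Calls lost were 1 with RLE scaling, 2 with plain totals, 8 without a filter, 1 with the count filter, 3 with naive libraries of the same experiment and 8 with a fit to the compared libraries alone, where HNF4A between mTeSR and N2B27 at day 8 was gained. The cause was not tested. Over all genes, the number called fell by over 1.5 times in 13 of 43 comparisons under DESeq2 (410 from 635 genes for mTeSR against N2B27 at day 8). With a fit to the compared libraries alone it moved by over 1.5 times in 12 of 25, 6 higher and 6 lower. It fell to 800 from 1216 genes for E8 against N2B27 at day 8 and to 450 from 885 for mTeSR against E8 at day 8. It rose to 657 from 415 for E8 against N2B27 at day 4 and to 345 from 184 for mTeSR against E8 at day 6. Leaving out 1 library also moved the number of all genes called by over 1.5 times in some comparisons. Among these were N2B27 from day 4 to day 6 and from day 6 to day 8, and E8 against N2B27 at days 3 and 8. The shares of all genes beside the members are uncertain to that extent. Depth limits the early days, where SOX17, FOXA2 and GATA6 mostly held under 4 counts.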
